A study of Mus musculus with 8 samples.

Results

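Runx1, Runx2 and Runx3 encode the 3 mammalian RUNX transcription factors, and Cbfb encodes core binding factor beta (CBF beta), the subunit they share. The 4 genes were taken by name from the 47937 gene IDs of the count tables, and the rule for choosing them uses no measured value, although earlier results of these data were known. The RNA was that of A-MuLV transformed mouse pro-B cells, early B-lineage cells that Abelson murine leukaemia virus makes grow without limit. All 8 libraries have the genotype EBF1-dTAG_N: the cells' own EBF1, a transcription factor needed for B-lineage commitment, had been replaced by a modified gene introduced from outside, whose product carries a dTAG degradation tag. Cells were treated for 6 h with 0.5 µM dTAG-13, a small molecule that directs dTAG-tagged proteins to degradation, or with its solvent DMSO, with 4 biological replicates in each group per the study's design text. The sample titles call the DMSO group 0 h, while its treatment label reads DMSO for 6 h. No group without the tag was compared, so effects of the compound and of EBF1 loss cannot be told apart. The number of clones behind the cells is not given in the sources used here, and the cells are transformed, so they may differ from pro-B cells of the bone marrow.

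RUNX proteins bind DNA through the Runt domain, and CBF beta, which does not contact DNA itself, strengthens that binding and protects RUNX proteins from degradation. RUNX1 is required for the first blood stem cells of the embryo and, together with CBF beta, for early B-cell development, where it acts beside EBF1 on genes of the B lineage. RUNX2 is best known as the master factor of bone formation, and RUNX3 for its part in cytotoxic T cells, natural killer cells and sensory neurons. Each Runx gene is transcribed from a distal and a proximal promoter.

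Sequence at the start sites shows what the 3 Runx genes share that their names do not. The windows used hold 250 bases before and 50 from the start of a RefSeq transcript (GRCm38.p6), and 6 were found: 2 each for Runx1 and Runx3 and 1 each for Runx2 and Cbfb. The upstream windows of all 3 Runx genes hold the same run of 18 bases, printed here in capitals because it carries 2 copies of the RUNX motif ACCACA.
Runx1, chr16:92826025-92826054, minus strand: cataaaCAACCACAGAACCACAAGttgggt
Runx2, chr17:44814583-44814612, minus strand: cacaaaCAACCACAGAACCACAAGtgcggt
Runx3, chr4:135120503-135120532, plus strand: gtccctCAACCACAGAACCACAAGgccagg
The run begins at base 27 of the transcript in Runx1, at base 22 in Runx2, and 136 bases before the start in Runx3. It was found in 4 of 32851 windows of all genes, these 3 and that of Gm16225, which lies on the opposite strand to Runx3 at the same place and had 0 exonic reads. Searched on both strands, 2 copies of ACCACA in the same direction with 2 bases between them were present in 7 windows (0.0213%), and a single ACCACA in 16.8%, these 7 included. Runx2 held 1 more ACCACA 80 bases before its start, outside the shared run.

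The inner window of Runx1, the inner window of Runx3 and that of Cbfb held no ACCACA. An ETS motif, CCGGAA, stood in the inner window of Runx1, 106 bases before the start, and is shown in capitals because ETS factors are frequent partners of RUNX proteins.
Runx1, chr16:92697403-92697462, minus strand: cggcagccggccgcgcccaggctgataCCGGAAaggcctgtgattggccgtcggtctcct
This motif was present in 14.9% of windows on either strand. The EBF motif, TCCC and GGGA with 2 bases between them, was in 0 of the 6 windows and in 0.904% of all windows. A match describes letters in these windows only, and binding was not measured.

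Depth ranged from 28982316 to 38999496 exonic and from 37269253 to 50980817 whole-gene reads per library, and intronic reads, obtained as whole-gene minus exonic reads, were 20.4% to 27.3% of the latter. Of the exonic reads, 25.7% to 29.3% fell on Gm26917 and Gm42418, genes that overlap ribosomal RNA. The main library sizes include them, which lowers the exonic levels of all other genes. All 10 markers fixed for pro-B cells were measured. Their summed exonic level was 2987 to 3054 CPM (counts scaled to a common library size) in DMSO and 2252 to 2387 CPM in dTAG-13, with 8 lower, 1 higher (Ebf1) and 1 not called (Dntt), where 14.0% of all tested genes were called lower and 14.3% higher. All 10 T-cell markers stayed below 1 CPM in every library, with 7 at 0, among them Cd3e and Cd8a. All 7 markers of natural killer and innate lymphoid cells, 7 of 8 myeloid markers, 5 of 6 megakaryocyte markers and 6 of 7 markers of bone-forming cells were also below 1 CPM throughout. Klrb1c, a natural killer receptor gene, was called higher (log2 change 1.32, edgeR adjusted p = 0.0251) and so was the myeloid lysozyme gene Lyz2 (1.26, edgeR adjusted p = 0.0305). The summed level of the natural killer list was 0.104 to 0.261 CPM in DMSO and 0.408 to 0.753 CPM in dTAG-13, and that of the myeloid list 4.08 to 4.62 CPM and 3.52 to 4.34 CPM. Their part in the results on the 4 genes was not tested. RNA of Ebf1 does not check the treatment, since dTAG-13 acts on the protein.

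Of the 4 genes, Runx1 was the one that fell. Its exonic level was 328, 324, 351 and 337 CPM after DMSO and 243, 263, 256 and 267 CPM after dTAG-13. Every treated library lay below every control. Runx1 (ENSMUSG00000022952.16) lies on chromosome 16, 92601466 to 92826149, minus strand, in the GENCODE vM21 annotation of GRCm38, which holds another version of this gene ID. The fall was 1.30-fold, a log2 change of -0.38 ± 0.04 (SE, n = 4 per group, edgeR quasi-likelihood test, Benjamini-Hochberg adjusted p = 7.3e-09). Among all tested genes 14.0% were called lower and 13.5% had all treated libraries below all controls, so such a fall was frequent in these cells. Among the 1808 genes called lower, the fall of Runx1 ranked 571 by size. Whether fewer cells or less RNA per cell carried the change cannot be told apart in bulk RNA.

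Intronic Runx1 reads, which come mostly from unspliced RNA, fell as well. They were 3024, 2500, 3013 and 2846 CPM of intronic reads in DMSO and 1994, 1992, 2067 and 2205 CPM in dTAG-13, again without overlap. The highest treated library stood below the lowest control, DMSO replicate 2. The fall was 1.38-fold (log2 change -0.46 ± 0.08, SE, n = 4 per group, edgeR adjusted p = 0.000103), against 8.50% of tested genes called lower and 10.0% fully separate and lower. Reads in the 213 kb of Runx1 introns made up 72.4% ± 2.39 of all its reads under DMSO and 70.8% ± 2.85 under dTAG-13 (SD, n = 4 each). The exonic and intronic changes differed by 0.08 ± 0.07 on the log2 scale, which did not pass the test (SE, n = 4 per group, edgeR adjusted p = 0.874), and 0.319% of all genes tested did so.

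**Figure D1:**
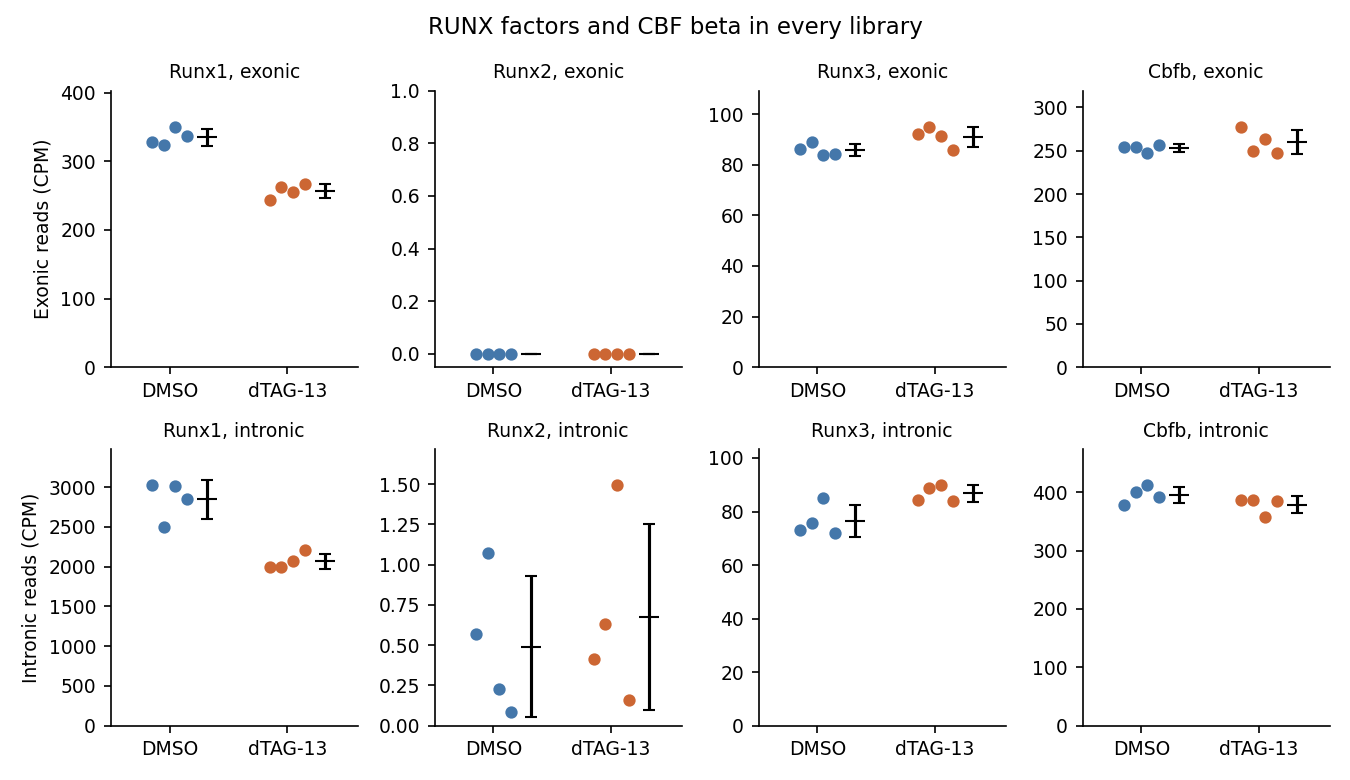
Exonic (top) and intronic (bottom) CPM (y axis, a separate scale in each panel) of the 4 genes in each of the 4 DMSO and 4 dTAG-13 libraries. Points are libraries in replicate order, and the cross line with bars is the mean ± SD. Runx1 is lower in every dTAG-13 library, Runx2 is at 0 exonic reads in all 8, and Runx3 and Cbfb overlap between the groups.

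Runx3, the paralog known from T and natural killer cells, was also expressed in these B-lineage cells, in which the markers of those cell types stayed below 1 CPM. Its exonic level was 86.3, 89.2, 84.0 and 84.3 CPM in DMSO and 92.2, 95.1, 91.3 and 85.7 CPM in dTAG-13. The first 3 treated replicates lay above every control and the fourth lay inside their range. The log2 difference was 0.08 ± 0.04 (SE, n = 4 per group) and missed the threshold (edgeR adjusted p = 0.127), with 2 SE reaching from 0.00 to 0.17. Without dTAG-13 replicate 4 the difference was 0.11 and passed (edgeR adjusted p = 0.0363). Runx3 (ENSMUSG00000070691.10) lies on chromosome 4, 135120652 to 135177990, plus strand (GRCm38).

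Intronic Runx3 reads were 73.2, 75.7, 85.1 and 72.1 CPM in DMSO and 84.2, 88.9, 89.9 and 83.9 CPM in dTAG-13. DMSO replicate 3 stood above the other controls and above treated replicates 1 and 4. The log2 difference was 0.18 ± 0.07 (SE, n = 4 per group), which missed the threshold (edgeR adjusted p = 0.0958). Leaving out that control gave 0.25, which passed (edgeR adjusted p = 0.0257). Exonic and intronic differences of Runx3 were not distinguishable from each other (-0.10 ± 0.08, SE, n = 4 per group, edgeR adjusted p = 0.838).

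Runx2, the bone factor, had 0 exonic reads in all 8 libraries. A count of 0 allows up to 0.0106 CPM over all libraries together (3 counts of their total), and 0.0765 to 0.104 CPM in a single library, for counting error only. Runx2 (ENSMUSG00000039153.16) lies on chromosome 17, 44495987 to 44814797, minus strand (GRCm38). Intronic Runx2 reads numbered 5, 9, 3 and 1 in the DMSO libraries and 4, 8, 16 and 2 in the dTAG-13 libraries. Their sums, 18 (exact Poisson 95% interval 10.7 to 28.4) and 30 (20.2 to 42.8), have overlapping intervals, and the gene was too low to test. The opposite-strand gene Supt3 overlaps the 5' part of Runx2 (44777152 to 45119290) and carried 64248 intronic reads, and the strand setting of the counting is not given in the sources used here. The few intronic reads therefore cannot be assigned to Runx2 with certainty.

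Cbfb, the common partner, was not called in exonic or intronic reads, and its groups overlapped in both. Its exonic level was 255, 254, 247 and 256 CPM in DMSO and 278, 250, 263 and 248 CPM in dTAG-13. Treated replicates 1 and 3 were above all controls and the others among them. The log2 difference was 0.04 ± 0.04 (SE, n = 4 per group, edgeR adjusted p = 0.545), and 2 SE reached from -0.04 to 0.11. Intronic Cbfb reads were 378, 400, 412 and 391 CPM in DMSO and 386, 386, 358 and 385 CPM in dTAG-13. Treated replicate 3 was the lowest of the 8, and the log2 difference of -0.06 ± 0.06 did not pass (SE, n = 4 per group, edgeR adjusted p = 0.576). The exonic and intronic differences did not separate either (0.09 ± 0.07, SE, n = 4 per group, edgeR adjusted p = 0.835). Cbfb (ENSMUSG00000031885.13) lies on chromosome 8, 105170674 to 105217989, plus strand (GRCm38, another version of this ID in vM21). The small RNA genes Gm22063 and Gm24629 lie within it on the same strand, with 203 and 227 exonic reads over all libraries, against 33691 for Cbfb in the DMSO and 38817 in the dTAG-13 libraries.

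**Figure D2:**
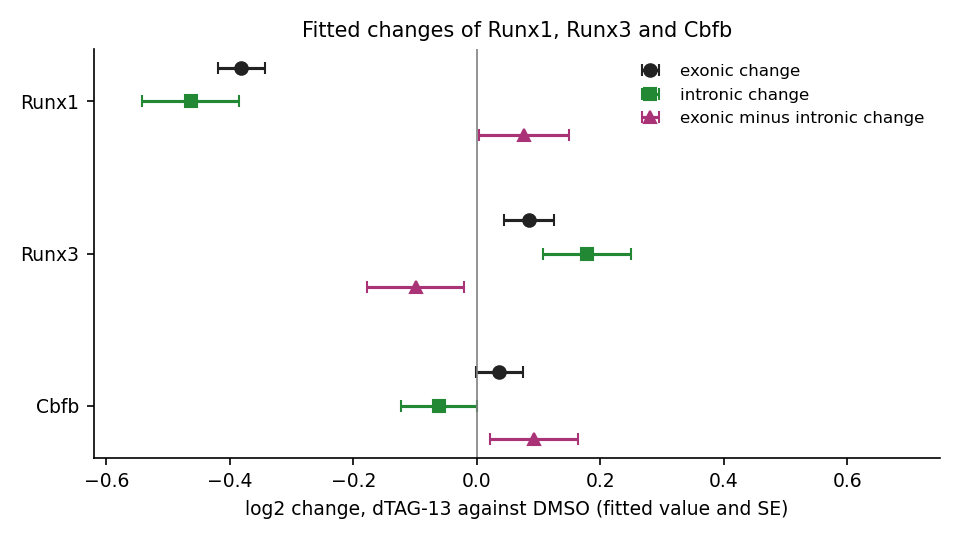
Fitted log2 change after dTAG-13 against DMSO (x axis) of Runx1, Runx3 and Cbfb in exonic reads (circles), in intronic reads (squares) and as exonic minus intronic change (triangles). Bars are 1 SE. The exonic and intronic changes of Runx1 lie at -0.38 and -0.46, and those of Runx3 and Cbfb lie between -0.06 and 0.18.

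Of the 3 genes tested, Runx1 was called and Runx3 and Cbfb were not, against 28.3% of all tested genes called in exonic and 16.8% in intronic reads. Whether the change of Runx1 differs from that of Runx3 or Cbfb was not tested. In the authors' deposited table, computed with DESeq2 from the same libraries, Runx1 was listed at a log2 change of -0.38 (adjusted p = 2.5e-24) in exonic and -0.44 (adjusted p = 1.4e-10) in intronic reads. For Runx3 the authors' deposited table gave 0.08 (adjusted p = 0.146) and 0.17 (adjusted p = 0.111), and for Cbfb 0.04 (adjusted p = 0.568) and -0.05 (adjusted p = 0.602).

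Levels of different genes were set side by side per kilobase of exon. In DMSO, Cbfb stood highest at 71.0 to 73.7 exonic CPM per kb, above 96.8% of 12838 genes. Runx1 followed at 26.9 to 29.2 CPM per kb (above 89.6%) and Runx3 at 16.8 to 17.8 CPM per kb (above 81.2%), so no 2 of the 3 overlapped. In dTAG-13 the order was the same, and the gap between Runx1 (20.2 to 22.2 CPM per kb) and Runx3 (17.1 to 19.0 CPM per kb) was narrower. Exon length was the union of annotated exons, so a gene with long or little-used exons is understated.

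The makeup of the Runx RNA pool shifted in every treated library. Runx1 supplied 61.2%, 60.2%, 63.5% and 62.5% of the summed Runx level per kb in DMSO and 52.3%, 53.5%, 53.8% and 56.5% in dTAG-13. The groups did not overlap, and the remainder was Runx3. The summed level was 45.0 ± 0.644 CPM per kb in DMSO and 39.6 ± 0.917 CPM per kb in dTAG-13 (SD, n = 4 each). Per kb of exon, Cbfb RNA exceeded the summed Runx RNA in all 8 libraries. The ratio was 1.65, 1.63, 1.55 and 1.64 in DMSO and 2.07, 1.76, 1.91 and 1.81 in dTAG-13. Each treated ratio was above each control ratio. Without scaling by length the order was another: in DMSO Runx1 averaged 335 CPM, Runx3 85.9 CPM and Cbfb 253 CPM. In dTAG-13 the means were 257, 91.1 and 260 CPM. The Runx1 share and the Cbfb ratio therefore depend on the exon lengths used. These ratios follow from the levels already given, so they carry no test of their own, and they describe RNA, not protein subunits.

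**Figure D3:**
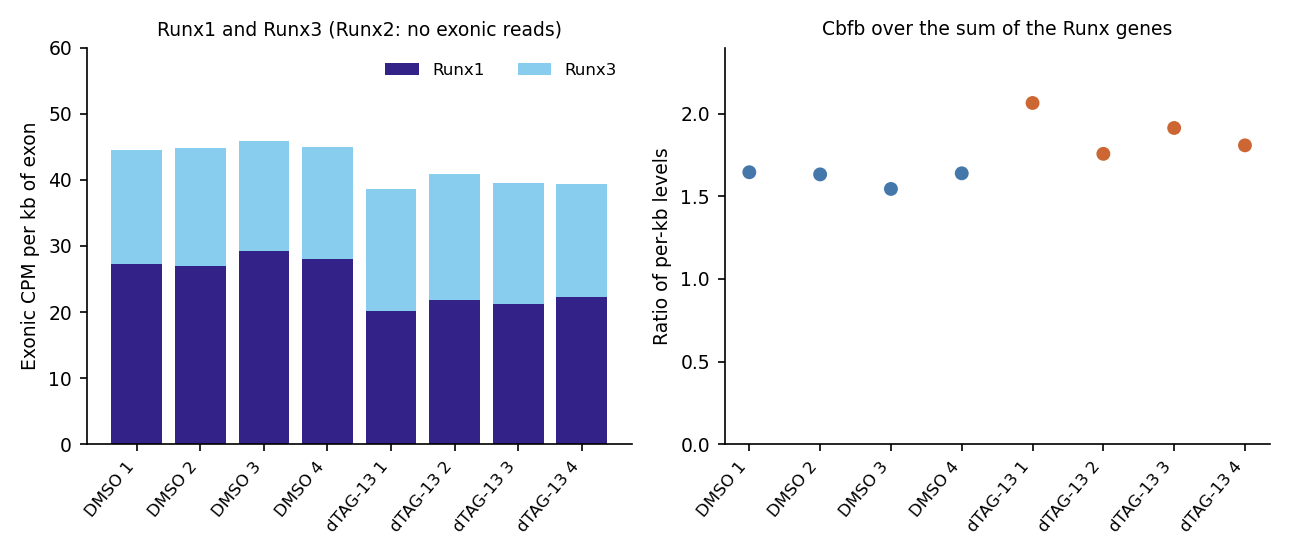
Left, exonic CPM per kb of exon of Runx1 and Runx3 stacked in each library (x axis), with Runx2 at 0. Right, the ratio of the Cbfb level per kb to the summed Runx level per kb in each library. The stack falls from 44.5 to 46.0 in DMSO to 38.7 to 40.9 in dTAG-13, and the ratio lies at 1.55 to 1.65 in DMSO and 1.76 to 2.07 in dTAG-13.

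Intronic coverage differed between the genes. Per kb, intronic reads of Runx1 reached 14.98% ± 1.70 of the density of its exonic reads under DMSO and 13.9% ± 2.03 under dTAG-13 (SD, n = 4 each). For Cbfb the values were 3.87% ± 0.433 and 3.57% ± 0.742, and for Runx3 2.67% ± 0.429 and 2.78% ± 0.450 (SD, n = 4 each). The ranges of Runx1, 12.7% to 16.5% and 12.2% to 16.7%, lay above those of the other genes in all libraries.

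Genes next to the members were read to see whether a change stayed with 1 gene of the locus. Beside Runx1, Clic6 was 60.2 kb and Rcan1 131 kb away on one side, and Setd4 and Cbr1 were 757 and 780 kb away on the other. Rcan1, a calcineurin inhibitor, was low (2.62 ± 0.148 and 3.04 ± 0.521 exonic CPM, SD, n = 4 each) and not called, and the other 3 were at or near 0. Clic4, a chloride intracellular channel gene 36.0 kb from Runx3, rose from 215 ± 7.66 to 284 ± 6.64 exonic CPM (SD, n = 4 per group, log2 change 0.40, edgeR adjusted p = 1.2e-09) and by 0.28 in intronic reads (edgeR adjusted p = 0.00423). Syf2, Rsrp1 and Srrm1, the other neighbours of Runx3, were not called. Clic5, 216 kb from Runx2, changed by -0.53 in intronic reads (edgeR adjusted p = 0.00097) and by 0.06 in exonic reads (edgeR adjusted p = 0.683). Those changes differed by 0.57 ± 0.15, which did not pass (SE, n = 4 per group, edgeR adjusted p = 0.157). Next to Cbfb, D230025D16Rik and B3gnt9 were not called, and Ces4a and Ces3b had 0 exonic reads. Around Runx2, Cdc5l and the overlapping Supt3 were not called, and Enpp4 and Spats1 were too low to test.

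RUNX proteins act through other factors, and 5 lists of such genes were examined, 119 genes in all, of which 118 were measured and 79 passed the filter on low exonic counts. Of those 79, 19 were lower and 21 higher, where 14.0% and 14.3% of all tested genes were. The lists were written with earlier results of these libraries known, so their counts are descriptions. Ebf1, whose exonic reads can include those of the introduced gene, stands in both the partner and the blood target list, and Pax5 and Cd79a are also pro-B markers. In the edgeR test of exonic against intronic change 0 of their 71 tested genes passed, and 9 had an unadjusted p below 0.05.

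Of the genes listed as partners of RUNX proteins on DNA, 5 of 20 tested were lower and 10 higher, against 14.0% lower and 14.3% higher over all genes. The median log2 change was 0.13 against -0.0030. Lyl1, a basic helix-loop-helix factor of progenitor cells, rose from 178 ± 2.28 to 280 ± 10.8 exonic CPM (SD, n = 4 per group, edgeR adjusted p = 7.3e-14), and its intronic change was 0.72. Smad3, the TGF-beta signal transducer that binds RUNX proteins, rose from 27.1 ± 0.881 to 49.8 ± 1.27 CPM (SD, n = 4 per group, edgeR adjusted p = 4.8e-14), with an intronic change of 0.91. Lef1 (-1.74) and Myb (-0.61) fell, while Lmo2 (1.27) and Jun (1.00) rose. The other AP-1 gene Fos measured 0.419 ± 0.138 and 0.877 ± 0.391 CPM (SD, n = 4 each) and was called higher (1.08, edgeR adjusted p = 0.0373), a call lost without DMSO replicate 2, 3 or 4 or dTAG-13 replicate 2 or 3 (edgeR adjusted p = 0.0909 to 0.188). Ets1, the classic partner that binds DNA together with RUNX1, was chosen after its values were seen: it fell from 113 ± 3.47 to 87.0 ± 4.13 CPM (SD, n = 4 per group, log2 change -0.38, edgeR adjusted p = 3.1e-08). In intronic reads 6 of 18 tested partners were lower and 7 higher, against 8.50% and 8.26% of all genes.

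Of the corepressors and coactivators of RUNX proteins, 7 of 25 tested were lower and 3 higher (40.0% called, against 28.3% of all genes, median -0.01). Tle1, a Groucho corepressor that binds the C-terminal end of RUNX proteins, fell from 28.1 ± 1.46 to 20.7 ± 0.571 CPM (SD, n = 4 per group, log2 change -0.44, edgeR adjusted p = 1.6e-06), and its intronic change was -0.65. Its relative Tle3 fell by 0.20 on the log2 scale and Smarca4, the chromatin remodelling ATPase BRG1, by 0.17. In intronic reads Smarca4 was called lower (-0.23) and Tle3 was not called (-0.06, edgeR adjusted p = 0.657). Ep300, the acetyltransferase p300, rose by 0.26 in exonic and 0.31 in intronic reads. Without dTAG-13 replicate 1 the count of higher genes was 5, and with exons and introns counted together the count of lower genes was 4. In intronic reads 3 of 23 were lower and 2 higher, against 8.50% and 8.26% of all genes. The lower count became 1 without DMSO replicate 1, 3 or 4, and the higher count became 1 without DMSO replicate 1 or dTAG-13 replicate 3.

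**Figure D4:**
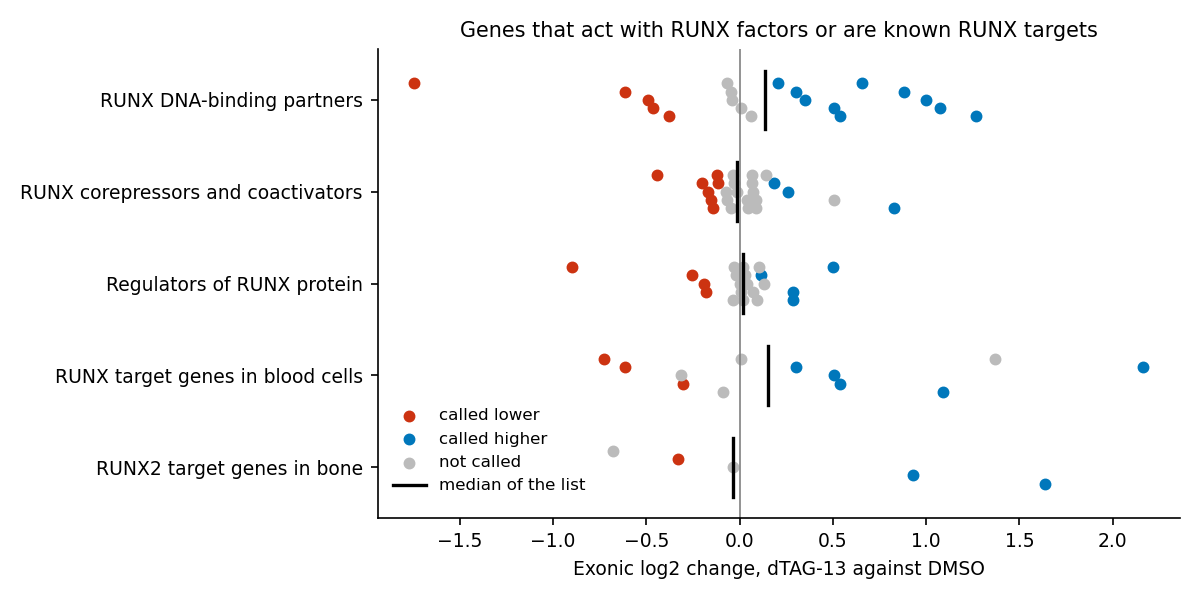
Exonic log2 change after dTAG-13 against DMSO (x axis) of every tested gene in the 5 lists (rows), coloured by the edgeR call at an adjusted p below 0.05. The vertical bar is the median of each list, which lies between -0.04 and 0.15. Genes that stand in 2 lists are drawn in both.

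All 21 genes listed here as regulators of RUNX protein were tested, and 4 were lower and 4 higher (38.1% called, against 28.3% of all genes, median 0.02). Ccnd3 (-0.90), a D-type cyclin, and Nedd4, a ubiquitin ligase that fell from 172 ± 1.92 to 144 ± 4.75 CPM (SD, n = 4 per group, log2 change -0.26, edgeR adjusted p = 3.3e-06), were lower. Fyn (0.50), a Src-family kinase, and Cdk6 (0.29), a G1 kinase that binds RUNX1, were higher. Intronic changes were -1.20 for Ccnd3, -0.29 for Nedd4 and 0.41 for Fyn, all called. That of Cdk6 was 0.02 and not called (edgeR adjusted p = 0.885). The count of higher genes was 2 without DMSO replicate 2 or dTAG-13 replicate 2 and 6 without dTAG-13 replicate 3. In intronic reads 3 were lower and 2 higher, with 16.8% of all genes called.

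Known target genes of RUNX factors in blood cells went both ways, and most were low or at 0 here. In every library 20 of 31 stayed below 1 CPM, 12 of them at 0, among them Cd4, Cd8a and Elane. Of 12 tested, 3 were lower and 5 higher (66.7% called, against 28.3% of all genes, median 0.15). Ccr7, a chemokine receptor, rose from 18.7 ± 1.45 to 39.8 ± 1.02 CPM (SD, n = 4 per group, log2 change 1.09, edgeR adjusted p = 4.3e-14), and its intronic reads rose by 0.96. Itgal, the alpha chain of the integrin LFA-1, rose from 0.599 ± 0.254 to 2.699 ± 1.02 CPM (SD, n = 4 per group, log2 change 2.16, edgeR adjusted p = 5.6e-06), and its intronic change was 2.55. Spi1 (0.51), which encodes PU.1, rose and Myb (-0.61) and Socs3 (-0.73) fell. Spi1 (0.58) and Myb (-0.70) were also called in intronic reads, and Socs3 was not (-0.48, edgeR adjusted p = 0.380). In intronic reads 2 of 11 were lower and 4 higher (8.50% and 8.26% of all genes).

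Bone target genes of RUNX2 gave 1 lower and 2 higher of 5 tested (14.0% and 14.3% of all genes, median -0.04), and 0 of 4 were called in intronic reads by edgeR or by DESeq2 (1, Alpl, at an unadjusted p below 0.05 with edgeR). Alpl, tissue-nonspecific alkaline phosphatase, fell from 234 ± 5.81 to 186 ± 9.73 CPM (SD, n = 4 per group, log2 change -0.33, edgeR adjusted p = 1.9e-07). Spp1, osteopontin, rose from 1.13 ± 0.143 to 2.15 ± 0.229 CPM (SD, n = 4 per group, edgeR adjusted p = 0.00237). Mmp13, a collagenase, measured 0.223 ± 0.148 and 0.720 ± 0.540 CPM (SD, n = 4 each). It was called higher (edgeR adjusted p = 0.0165), a call lost without DMSO replicate 2 (edgeR adjusted p = 0.0652), DMSO replicate 4 (0.0551) or dTAG-13 replicate 1 (0.189), and the 1 CPM filter removed it. A gene as low as Mmp13 can pass the main filter through the dTAG-13 libraries alone, which favours a call of higher. Phex (-0.68, and -1.09 to -0.39 with single libraries left out) was not called. Sp7, the osteoblast factor downstream of RUNX2, and Ibsp had 0 exonic reads in all libraries, as did Runx2.

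Genes whose exonic log2 CPM, relative to their own DMSO mean, ran nearest to each member over the 8 libraries were sought among 10205 genes by root mean square difference. Nearest to Runx1 were Tmem134 (0.0407), Nlrc5 (0.0415) and Mef2d (0.0435), each called lower with log2 changes of -0.38, -0.34 and -0.38. Mef2d, a MADS-box transcription factor of B-cell development, went from 368 ± 3.28 to 283 ± 3.73 CPM (SD, n = 4 each). Runx3 was nearest to Wdtc1 (0.0270), Usp4 (0.0271) and Rnf10 (0.0273), none of them called. Cbfb was nearest to Arhgdia (0.0191), Khdrbs1 (0.0195) and Cs (0.0200), also not called. A profile of this kind reflects the size of the change and the noise of 8 libraries that all genes share.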

How the data were processed

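Total RNA was sequenced in 8 stranded libraries after depletion of ribosomal RNA, per the labels' protocols, and groups came from the treatment labels. What the authors deposited are unnormalized read counts for each gene, over its exons and over its whole length. In the submitters' processing notes stand the builds mm10 and GRCm38.p4 and the tools DESeq2, featureCounts, Subread 2.0.0, SAMtools 1.10 and STAR 2.7.4a. Their roles, the strand setting and annotation release are not given in the sources used here. The authors' deposited comparison of 25948 genes gives log2 fold changes with p-values from DESeq2, per the file headers. All per-sample columns were used.

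Intronic counts were whole-gene minus exonic counts, and none was negative. The test was that of edgeR 4.0.16 in R 4.3.3 on the counts (quasi-likelihood F test, TMM, filterByExpr with minimum count 10 and total 15), with treatment as the only term and Benjamini-Hochberg adjustment over all genes at 0.05: 12889 exonic, 11229 intronic and 10026 for the difference, the last from 1 model of both read classes with the library as a block. SE is the log2 change divided by the square root of F. CPM uses TMM-scaled library sizes, so each value is a share of a library's RNA. Median SE over genes was 0.07, 0.11 and 0.12. Within groups, chi-square per degree of freedom between replicates was 4.76 to 13.4, so no library was a copy of another. Scripts were tested on simulated counts. Likeness used log2 CPM with a pseudocount of 0.1. Gene names came from a reference table for 44207 IDs and from the authors' table for 3028.

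The members and lists were chosen with earlier results of these data known. Named genes were the members, the 2 nearest protein-coding genes on each side, in each list the 4 tested genes with the smallest exonic p and all called with at least 2-fold change, and the 3 genes most like each tested member. Tle5 was not matched. Alternatives were DESeq2 1.42.0 and its size factors, no filter or 1 CPM in 4 libraries, library sizes without Gm26917 and Gm42418, whole-gene counts, a replicate block, and each library left out.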

Additional observations from a re-analysis of the deposited data

Results flagged for a closer look

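Intronic Cbfb in dTAG-13 replicate 3 measured 358 CPM, while the other 3 dTAG-13 libraries measured 385 to 386 CPM, so this library stood apart from the rest of its group in that value. It was the only such case among 14 sets of 4 libraries examined for the 4 genes, and chance gives about 1 in 20. The exonic value of Cbfb in the same library was 263 CPM, inside the range of its group.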

How the results depend on the processing

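Runx2 had 0 exonic reads in all 8 libraries and could not be tested. The SE limits small differences, as the intervals of Runx3 and Cbfb show. Runx1 kept its direction and its call in all 15 exonic alternatives (log2 change -0.45 to -0.36, adjusted p = 2.5e-23 to 0.00017) and all 14 intronic ones (-0.52 to -0.42, adjusted p = 4.9e-10 to 0.00146). The exonic alternatives take in the whole-gene counts, which also hold intronic reads. With single libraries left out, the exonic change of Runx1 was -0.40 to -0.36. Runx3 was called in exonic reads only without dTAG-13 replicate 4 and in intronic reads only without DMSO replicate 3, and its change with single libraries left out was 0.063 to 0.11 in exonic and 0.16 to 0.25 in intronic reads. Cbfb was called in none, and with single libraries left out its change was 0.0025 to 0.060 in exonic and -0.071 to -0.027 in intronic reads. The number of genes with different exonic and intronic change was 32, and it was 111 with no filter and 11 to 27 when single libraries were left out; the cause was not tested. The labels state no pairing of replicate numbers, and the main test used none. The deviations of same-numbered libraries correlated at 0.05, 0.00, -0.02 and 0.02. For DMSO replicates 1 and 4 the same-numbered dTAG-13 library correlated best, and for replicates 2 and 3 another did. Such low values cannot show whether the libraries were paired. With a replicate block Runx1 changed by -0.38 (edgeR adjusted p = 4.3e-10) in exonic and -0.46 (7.8e-05) in intronic reads, and 3753 exonic and 1937 intronic genes were called, with only the call of Fos lost among named genes (edgeR adjusted p = 0.0574). Among neighbours that were not called, exonic changes turned negative for Rcan1 (-0.086), Supt3 (-0.0040) and Clic5 (-0.21, edgeR adjusted p = 0.0354) with whole-gene counts, for Clic5 without DMSO replicate 2 (range with single libraries left out -0.0043 to 0.094) and for B3gnt9 without dTAG-13 replicate 3 (range -0.0029 to 0.18). Whole-gene counts include introns, where Clic5 was lower. Fos was also lost with whole-gene counts (edgeR adjusted p = 0.102), and Rnf10 passed without dTAG-13 replicate 4 (0.10, edgeR adjusted p = 0.0221).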
